A study of Mus musculus with 4 samples.

Results

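Wfdc18 and 4930430E12Rik are 2 of the 28595 genes counted in sections of mouse testis, and they were picked because they had many counts in entire sections of H3t knockout testis and almost none in the other 9 libraries. The groups were H3t KO testis irradiated only at Leydig cells, H3t KO testis irradiated over the entire section, wild-type testis irradiated only at Leydig cells and wild-type testis irradiated over the entire section, with 3 libraries each. H3t is a testis-specific variant of histone H3, and the series title calls such testes deficient in spermatogenesis. Titles of the wild-type samples carry the word young, while the sources used here give no age for the knockouts. Sections were 10 µm thick and were profiled by photo-isolation chemistry, in which light uncages blocked DNA ends, so that a library forms only from RNA copied within the lit area. Whether each library is its own animal is not stated, so a p-value here measures only the spread between libraries, which may be technical. The deposited barcode table gives each group 1 library name with 3 barcodes, so sequencing library and group cannot be told apart.

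Wfdc18 encodes a small secreted protein with a whey acidic protein (WAP) four-disulfide core, a fold shared by a family of extracellular proteins many of which inhibit serine proteases. The mouse gene was also known as Expi, for extracellular proteinase inhibitor, and was studied mainly in mammary gland. In the male tract the family is best known through Eppin, a protease inhibitor that coats sperm. 4930430E12Rik is a RIKEN cDNA locus annotated as a noncoding antisense transcript, and no function is assigned to it here.

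Wfdc18 (ENSMUSG00000000983) lies on chromosome 11 from 83709015 to 83711348 on the plus strand of GRCm38 and covers 2334 bases. It is a protein-coding gene, and no other annotated gene overlaps it. Its transcript Wfdc18-201 has 3 exons and 521 bases, of which 222 are coding. 4930430E12Rik (ENSMUSG00000085295) lies on chromosome 4 from 6352105 to 6357530 on the minus strand and covers 5426 bases. Its 2 transcripts of 4 exons have 901 and 641 bases and no coding sequence. Although its biotype is antisense, 0 annotated genes overlap it, so no partner gene competes for its reads whichever strand setting was used in counting.

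The sequence just ahead of the Wfdc18 start is shown because this gene had no count in any library outside the knockout entire sections. The RefSeq promoter table held 1 of the 2 genes. The 250 bases before the RefSeq start of Wfdc18, at chr11:83708754-83709003 on the plus strand of GRCm38.p6, read 5′ to 3′ as follows, with TATAAA in capitals.
Wfdc18: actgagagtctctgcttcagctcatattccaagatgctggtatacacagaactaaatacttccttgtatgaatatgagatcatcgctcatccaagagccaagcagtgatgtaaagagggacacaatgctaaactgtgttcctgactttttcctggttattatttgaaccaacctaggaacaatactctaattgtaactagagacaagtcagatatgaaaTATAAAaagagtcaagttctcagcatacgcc
Both strands were searched for TATAAA, and it was found 1 time, on the plus strand, with its first base 31 bases before the start. This motif was present on either strand in 12.4% of the 32851 RefSeq promoters cut to the same length. It is a match of letters only and says nothing of which factor binds there.

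Library totals were 321771 to 475764 counts in H3t KO entire sections and 247539 to 566527 in wild-type entire sections. They were far smaller in Leydig-targeted libraries, at 15208 to 53003 counts in H3t KO testes and 5947 to 54882 in wild-type testes. H3f4, the annotated H3t gene, had 0 counts in all 6 knockout libraries and a single count, in 1 of the 6 wild-type libraries, which is too few to check the genotypes. Marker genes were chosen from general knowledge of testis cell types. The 9 germ cell markers summed to 158 to 811 CPM (counts scaled to the library total) in H3t KO entire sections, against 23944 to 44114 CPM in wild-type entire sections. The 8 Leydig markers in the table summed to 32877 to 40138 CPM in H3t KO Leydig-targeted libraries, against 15981 to 21435 CPM in H3t KO entire sections.

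Wfdc18 had 46, 46 and 48 counts in the 3 H3t KO entire sections. It had 0 counts in each of the 3 H3t KO Leydig-targeted, 3 wild-type Leydig-targeted and 3 wild-type entire-section libraries. Every count of this gene in the table thus came from 1 group, in near equal numbers from its libraries. Scaled to library size these were 96.7, 117 and 149 CPM, with exact 95% intervals of 70.8 to 129, 85.9 to 156 and 110.0 to 198 CPM, which like all intervals here cover counting error only. The mean was 121 ± 26.4 CPM (SD, n = 3). Wfdc18 ranked 2029 of 15615, 1723 of 15198 and 1213 of 15305 detected genes in these libraries, so it was a moderately abundant transcript.

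4930430E12Rik had 159, 166 and 165 counts in the 3 H3t KO entire sections, and 0, 1 and 2 counts in the 3 wild-type entire sections. It had 0 counts in each H3t KO Leydig-targeted library and 0, 0 and 1 counts in the wild-type Leydig-targeted libraries. Of its 4 counts outside the knockout entire sections, 3 were in wild-type entire sections. In H3t KO entire sections it stood at 334, 423 and 513 CPM, with intervals of 284 to 390, 361 to 493 and 438 to 597 CPM. The mean was 423 ± 89.3 CPM in H3t KO entire sections and 3.33 ± 4.22 CPM in wild-type entire sections (SD, n = 3 each). The single count in wild-type Leydig-targeted replicate 3 equals 168 CPM because that library held only 5947 counts. Its rank was 407, 264 and 202 among the detected genes of the 3 knockout entire sections.

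**Figure D1:**
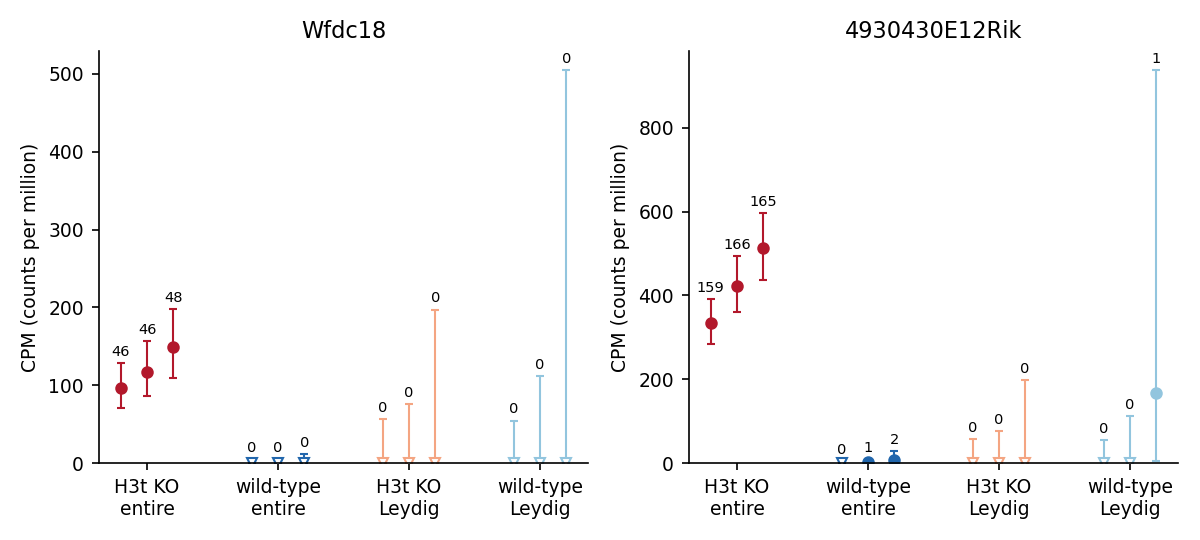
CPM (linear axis) of Wfdc18 (left) and 4930430E12Rik (right) in each of the 12 libraries, with the raw count printed above each point. Bars are exact 95% counting intervals, and for 0 counts (open triangles) they reach the level of 3 counts; the 3 H3t KO entire sections sit at 96.7 to 149 and 334 to 513 CPM, while intervals widen in the shallow Leydig-targeted libraries.

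In each wild-type entire section both genes were below all H3t KO entire sections. Of the 5182 genes tested between these groups, 39.6% were likewise higher without overlap. Because the genes were picked on this contrast, the separation is given as a description. With Wfdc18 set at a floor of 3 counts over the wild-type entire sections, its CPM was 52.4-fold higher in H3t KO entire sections. With TMM scaling this became 35.1-fold. Both folds are set by the floor and leave out counting error. For 4930430E12Rik the ratio of pooled CPM was 184 (62.4 to 893) over wild-type entire sections, or 123 with TMM scaling.

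At the rate of the knockout entire sections, the wild-type entire sections would have held 157 counts of Wfdc18 and 551 of 4930430E12Rik, where 0 and 3 were found. The Leydig-targeted libraries were shallower, so their zeros carry less. At that rate the H3t KO Leydig-targeted libraries would have held 12.7 counts of Wfdc18 and 44.4 of 4930430E12Rik, and both had 0. The floor of 3 counts over the group is 27.8 CPM. With 0 set at this floor, Wfdc18 was 4.23-fold lower in H3t KO Leydig-targeted libraries than in H3t KO entire sections, and 4930430E12Rik 14.8-fold lower. These folds are set by the floor and leave out counting error. The selection used these values, so they carry no test. In wild-type Leydig-targeted libraries the same rate would have given 10.3 counts of Wfdc18 and 36.1 of 4930430E12Rik, where 0 and 1 were found. In such bulk libraries fewer cells of a type and less RNA per cell cannot be told apart. Both genes also had a lower CPM in each H3t KO Leydig-targeted library than in every H3t KO entire section, as did 21.8% of the 5182 genes tested. In replicate 3 of that group 3 counts equal 197 CPM, and 1.79 counts of Wfdc18 would have been found at the entire-section rate. Its zero in that library therefore cannot show a lower level.

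The 2 genes had a similar ratio of counts in each of the 3 knockout entire sections. How common such a likeness is among other pairs of genes was not tested. There were 3.46, 3.61 and 3.44 counts of 4930430E12Rik for each count of Wfdc18 in replicates 1, 2 and 3, and 3.50 over the 3 libraries together. Both were highest in CPM in replicate 3, by 1.54 times the lowest library for Wfdc18 and by 1.53 times for 4930430E12Rik, as were 31.5% and 31.9% of the genes of like abundance described next. The coefficient of variation was 21.8% for Wfdc18, against a median of 20.4% among the 1585 genes within 1.5 times its knockout counts. It was 21.1% for 4930430E12Rik, against a median of 16.4% among 382 genes of like abundance. Neither spread stood outside the middle range of those genes, whose quartiles were 12.6% and 29.4%, and 10.5% and 24.0%.

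Zeros at this abundance were rare. Of the 1661 genes with at least the 140 counts of Wfdc18 in H3t KO entire sections, Wfdc18 was the 1 gene with 0 counts in wild-type entire sections. In the H3t KO Leydig-targeted libraries 8 of these 1661 genes had 0 counts, namely Wfdc18, 4930430E12Rik, 1700025G04Rik, Adgrg1, Clstn1, Gpr37, Stk10 and Tmem9. Of the 278 genes with at least the 490 counts of 4930430E12Rik, it was the 1 gene with 0 counts in those libraries. These counts are those of the selection itself and carry no test.

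Likeness to the pair was measured as the share of a gene's CPM, summed over the 4 groups, that the H3t KO entire sections held. Among 6337 genes with at least 30 counts there, and a count in each of the 3 libraries, the median share was 30.4% and 7 genes reached 90%. Wfdc18 had rank 1 with 100% and 4930430E12Rik rank 4 with 96.8%. This share is close to the rule by which the pair was picked. Both ranks therefore follow from that choice, are given as a description and carry no test. With every other group of fewer than 3 counts set at 3 counts the shares became 64.7% and 86.5%, since the small Leydig-targeted totals make 3 counts a large CPM. The pseudogene Gm47481 was the other gene with no count elsewhere, with 20, 15 and 17 counts in H3t KO entire sections.

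The other 9 most like genes had 0 counts in the 6 Leydig-targeted libraries and between 1 and 10 in wild-type entire sections. At their low counts these zeros carry little in such shallow libraries. With every other group of fewer than 3 counts set at 3 counts, the shares of the 10 like genes ran from 28.4% (Slc1a4) to 55.1% (Rab7b). Sfn, the 14-3-3 sigma adaptor of epithelial cells, had 19, 13 and 6 counts in H3t KO entire sections and 1 count in total in wild-type entire sections. Rab7b, a small GTPase of late endosome traffic, had 42, 28 and 28 counts in H3t KO entire sections and 7 over the wild-type entire sections. The remaining 7 were Myo1d (an unconventional myosin), Robo4 (a guidance receptor of endothelium), Etv6 (an ETS family repressor), Slc1a4 (a neutral amino acid carrier), Nfkb2 (an NF-kappaB subunit), Rbms2 (an RNA-binding protein) and Cited4 (a transcriptional coactivator). They held 31 to 61 counts in H3t KO entire sections and 3 to 10 in wild-type entire sections. Both members had more counts than any of the 10, but they were picked for many counts. By the share with the floor of 3 counts, some genes outside the 10 stood above all of them. Among these were Ildr2 (119 counts in H3t KO entire sections, 60.9%) and Sh3d19 (130 counts, 56.8%). The order at low counts is loose: with a minimum of 15 counts, 9 of 8705 genes had none elsewhere, 4930430E12Rik stood at rank 11, and 2 of the 10 like genes stayed among the 10.

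**Figure D2:**
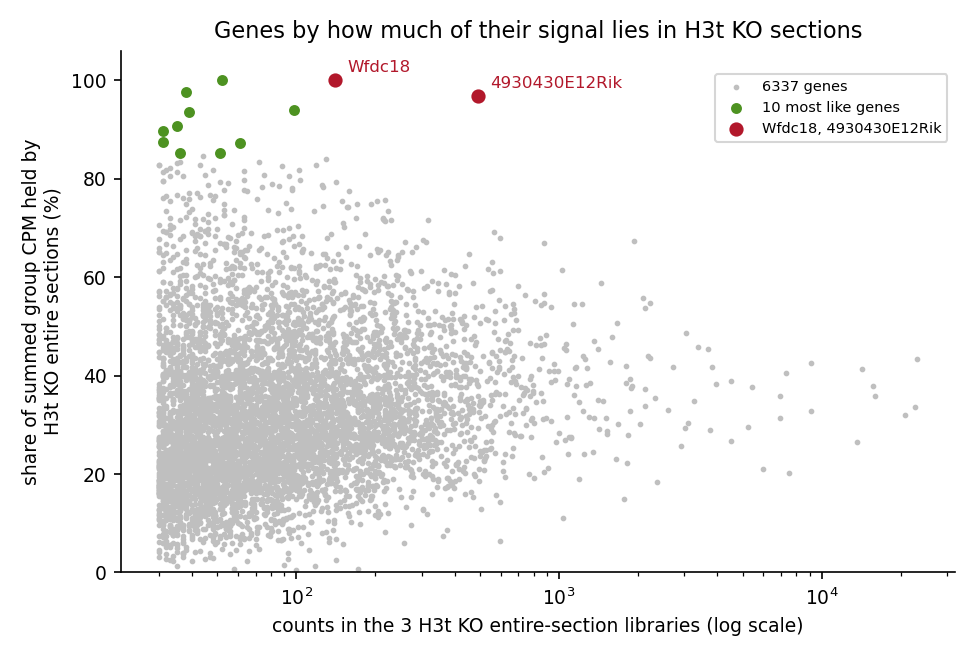
Each point is 1 of 6337 genes, with its counts in the 3 H3t KO entire sections (log scale) against the share, in percent, of its summed group CPM that those sections held. Wfdc18 at 140 counts and 4930430E12Rik at 490 counts lie to the right of the 10 most like genes, which have 31 to 98 counts. Both genes were picked for many counts.

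By Pearson correlation of log2(CPM + 10) over the 12 libraries, which share the 4 groups and their depths, the closest gene to Wfdc18 was Gm47481 (r = 0.999), followed by Robo4 (r = 0.98) and Rab7b (r = 0.97). Both members were picked for almost no counts in the other 9 libraries, so genes near 0 there have a high r through that choice. These values are a description and carry no test. For 4930430E12Rik the closest was Cst12 (r = 0.92), a cystatin of Sertoli cells, followed by Gm47481 (r = 0.88) and Syne2 (r = 0.87), a protein of the nuclear envelope. The single count of 4930430E12Rik in wild-type Leydig-targeted replicate 3 equals 168 CPM. In that library Cst12 had 3 counts and Gm47481 had 0. How far this order rests on that 1 count was not tested. The 10 closest genes to Wfdc18 and the 10 closest to 4930430E12Rik shared 5.

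Genes found in a single group were not equally common across groups. By the same minimum of 30 counts in a group's 3 libraries, 2 of 6337 genes had all their counts in H3t KO entire sections. In wild-type entire sections 72 of 7180 genes had all of theirs. In Leydig-targeted libraries there were 0 such genes, of 509 reaching the minimum in H3t KO and 283 in wild-type testes. Those groups pooled 107899 and 87682 counts, against 1189699 and 1336718 in H3t KO and wild-type entire sections. A gene with 30 counts in the shallow groups would seldom have none in the deeper ones, so these zeros do not compare the regions.

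Among WAP domain genes in H3t KO against wild-type entire sections, members moved in both directions. The family list had 23 entries, of which 20 were in the table and 19 had a count. Wfdc15b, Wfdc21 and Wap were not analysed here. Wfdc17, known in mouse as a macrophage and microglia WAP protein, is the neighbour of Wfdc18 on chromosome 11 and ends 2747 bases before its start on the same strand. How reads that match both of these related genes were counted is not stated. It had 30, 36 and 12 counts in H3t KO entire sections, against 4, 5 and 2 in wild-type entire sections. Wfdc1, a secreted growth regulator, had 23, 25 and 22 counts in H3t KO entire sections, against 7, 13 and 2 in wild-type entire sections. Wfdc6a had 18, 18 and 15 counts in H3t KO entire sections, against 6, 4 and 2 in wild-type entire sections. Unlike Wfdc18, these genes had counts in every wild-type entire section.

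Other members were lower in the knockout. Wfdc15a had 0, 2 and 2 counts in H3t KO entire sections, against 52, 26 and 20 in wild-type entire sections. Wfdc3 had 0, 4 and 2 counts in H3t KO entire sections, against 29, 24 and 8 in wild-type entire sections. Their libraries did not overlap between genotypes, as was so for 36% of the 5182 genes tested in this direction. Wfdc3 had too few counts to be among those 5182 genes, so this share is a background for Wfdc15a alone. The most abundant members by counts were Wfdc10, with 186, 171 and 126 counts in H3t KO and 120, 75 and 44 in wild-type entire sections, and Eppin, with 185, 151 and 143 counts in H3t KO and 201, 103 and 84 in wild-type entire sections. The other 11 members with a count, among them Slpi, the secretory leukocyte protease inhibitor, had 1 to 14 counts each in all 12 libraries.

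In the edgeR quasi-likelihood test on all 12 libraries, only the 3 most abundant of these other members passed the filter on low counts. Of them 0 were higher and 1 lower in H3t KO entire sections at an adjusted p under 0.05, where 22.6% of the 5182 genes tested were higher and 39.1% lower. The log2 fold changes were -4.75 ± 0.67 (SE, adjusted p = 9.61e-12, edgeR) for Wfdc15a, 0.62 ± 0.43 (adjusted p = 0.21, edgeR) for Wfdc10 and -0.10 ± 0.43 (adjusted p = 0.856, edgeR) for Eppin. The median over all genes tested was -0.35, and 36.6% of the calls were higher, a share that became 52.2% when scaled by library size alone.

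A fit of the 6 entire-section libraries alone tested 7 other members, since its filter is not set by the shallow libraries, and here 4 rose and 2 fell. Over its 7907 genes 30.2% were higher and 36% lower, with a median log2 fold change of -0.04. The genes that rose were Wfdc17 (2.66 ± 0.48, adjusted p = 2.55e-05), Wfdc6a (1.98 ± 0.45, adjusted p = 0.000399), Wfdc1 (1.60 ± 0.44, adjusted p = 0.0024) and Wfdc10 (0.94 ± 0.28, adjusted p = 0.00415). Those that fell were Wfdc15a (-4.56 ± 0.58, adjusted p = 1.37e-07) and Wfdc3 (-3.31 ± 0.57, adjusted p = 1.35e-05), while Eppin was at 0.22 ± 0.29 (adjusted p = 0.513, edgeR). Each of these 6 calls kept its direction and stayed under 0.05 when any of the 6 libraries was left out, with the highest adjusted p, 0.0382, for Wfdc10.

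**Figure D3:**
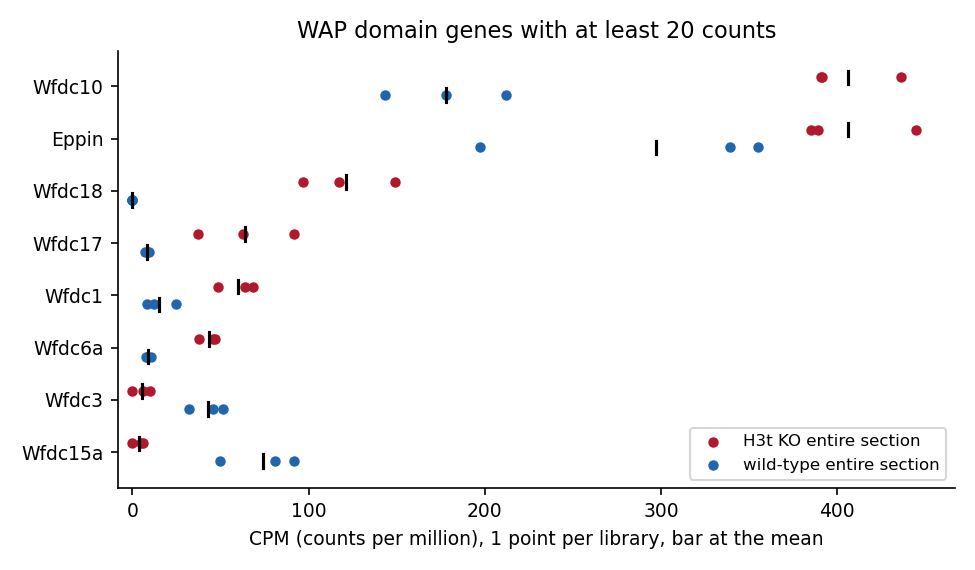
CPM (linear axis) of the 8 WAP domain genes with at least 20 counts in the table, with 1 point per library and a bar at the mean of 3 for H3t KO (red, upper row) and wild-type (blue, lower row) entire sections. Wfdc18 is the 1 gene at 0 in all wild-type entire sections, and Wfdc3 and Wfdc15a lie to the left in the knockout.

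Most genomic neighbours of the pair also had counts in wild-type entire sections. Within 200 kb of Wfdc18 the table held 10 genes, of which 9 had a count. Apart from Wfdc17, the nearest genes included Ccl6 and Ccl4, which encode chemokines, Heatr6 and Gm11434. Ccl6 had 2, 3 and 5 counts in H3t KO entire sections and 0 in all wild-type entire sections. Heatr6 had 16 counts over the H3t KO and 22 over the wild-type entire sections. Ccl4 and Gm11434 had at most 2 counts in either genotype. Wfdc18 also shares its chromosome with the targeted gene H3f4, at a distance of 24.7 Mb.

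Near 4930430E12Rik, the closest gene was Sdcbp, which encodes the PDZ adaptor syntenin-1 and lies 8.12 kb away on the plus strand. Sdcbp had 44, 56 and 16 counts in H3t KO entire sections, against 22, 7 and 5 in wild-type entire sections. Its log2 fold change was 1.37 ± 0.49 (SE, adjusted p = 0.00958, edgeR), which became 1.01 with an adjusted p of 0.114 without H3t KO entire section replicate 2. In the 6-library fit it was 1.67 ± 0.41 (adjusted p = 0.000851, edgeR). Ubxn2b, a cofactor of the p97 ATPase, had 113 counts over the H3t KO and 71 over the wild-type entire sections and was at 0.29 ± 0.44 (adjusted p = 0.586, edgeR). Cyp7a1 and Nsmaf had 2 to 7 counts in either genotype. The farther genes Fam110b and Tox had 25 and 53 counts over the H3t KO entire sections, against 13 and 59 over the wild-type entire sections.

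Markers of several cell types moved with the pair between genotypes, and their part in the result was not tested. In H3t KO against wild-type entire sections 8 of 8 tested Leydig, 8 of 10 Sertoli, 3 of 5 peritubular myoid and 4 of 4 macrophage markers were higher, and 7 of 8 germ cell markers were lower, where 22.6% of the 5182 genes tested were higher and 39.1% lower. The Sertoli count was 5 without replicate 2 or 3 of either genotype's entire sections. The summed level of the 10 Sertoli markers was 15315 to 15983 CPM in H3t KO entire sections, against 3302 to 6139 CPM in wild-type entire sections. That of the 9 macrophage markers was 994 to 1713 CPM in H3t KO entire sections, against 138 to 330 CPM in wild-type entire sections. The 8 peritubular myoid markers summed to 1895 to 2387 CPM in H3t KO entire sections, against 557 to 1170 CPM in wild-type entire sections. In all these lists the wild-type entire sections held counts. There Wfdc18 had 0 counts and 4930430E12Rik had 3, values on which both genes were picked. The 6 endothelial markers summed to 112 to 124 CPM in H3t KO entire sections, against 45.9 to 108 CPM in wild-type entire sections, and the 1 of them tested, Ly6c1, was not called.

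Markers of epithelia beside the testis had few counts in either genotype. The 6 epididymis markers in the table had 5 counts in H3t KO entire sections, against 17 in wild-type entire sections. Rnase10 gave 0 of these counts in H3t KO and 11 in wild-type entire sections, while Cst11 gave 3 in H3t KO and 0 in wild-type entire sections. The 9 markers of rete testis and duct epithelium had 22 counts in H3t KO entire sections, against 56 in wild-type entire sections, of which Epcam, an epithelial adhesion molecule, gave 10 and 52. Others ran the other way, such as the claudin Cldn4 with 5 counts in H3t KO and 0 in wild-type entire sections. The 6 markers of the tunica mesothelium had 22 counts in H3t KO and 28 in wild-type entire sections, again with members in both directions. Lrrn4 had 15 and Bnc1 6 counts in H3t KO entire sections, against 3 and 1 in wild-type entire sections, while Muc16 had 1 count in H3t KO and 18 in wild-type entire sections. All 3 lists had 0 counts in the H3t KO Leydig-targeted libraries. These pooled 107899 counts, against 1189699 in H3t KO entire sections, so at the same rate few counts would have been found.

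The comparison of regions within the knockout shares the H3t KO entire sections with the genotype comparison. The median log2 fold change over the 5182 genes was -0.42, with 1.91% of genes higher and 3.53% lower in Leydig-targeted libraries. In the same fit 4 of 10 Sertoli markers were lower, namely Sox9, Cst9, Cst12 and Aard, with 1 of 5 peritubular myoid markers, Myh11, and 0 of 8 Leydig, 0 of 4 macrophage and 0 of 8 germ cell markers. Leaving out single libraries gave 0 to 2 myoid, 0 to 1 macrophage and 0 to 3 germ cell markers lower and 0 to 1 Leydig markers higher, with 3 germ cell markers without H3t KO entire section replicate 2, wild-type entire section replicate 1 or wild-type Leydig-targeted replicate 1, and 0 myoid markers without H3t KO Leydig-targeted replicate 2. The Sertoli count was 2 without H3t KO entire section replicate 1 or H3t KO Leydig-targeted replicate 2, and 7 or 8 without replicate 1 of the wild-type entire sections or replicate 1 or 3 of the wild-type Leydig-targeted libraries. A fit of the 6 knockout libraries alone called 7 of 10 Sertoli markers lower and 3 of 7 Leydig markers higher, where 6.14% of its genes were lower and 5.88% higher. Of the other WAP domain genes, Wfdc10 (-2.15 ± 0.61, adjusted p = 0.0158, edgeR) and Eppin (-2.11 ± 0.62, adjusted p = 0.0208, edgeR) were lower. All 12 counts of Wfdc10 in H3t KO Leydig-targeted libraries were in replicate 1, without which the group had 0 counts and the fitted value was -9.37. Its value was -1.47 without replicate 2 of that group. Both calls ended without H3t KO Leydig-targeted replicate 2, with adjusted p of 0.231 for Wfdc10 and 0.0783 for Eppin (edgeR). They also ended without H3t KO entire section replicate 1 or 3, and that of Eppin without H3t KO Leydig-targeted replicate 1.

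As a ratio of pooled CPM in H3t KO Leydig-targeted over H3t KO entire sections, Wfdc18 was at most 0.236 and 4930430E12Rik at most 0.0675, each with 0 set at the floor of 3 counts. Both genes were picked for few counts in those Leydig-targeted libraries, so their place beside the markers follows in part from that choice and is given as a description. Leydig markers ran from 0.860 to 2.93, with a median of 1.89. Sertoli markers ran from 0.210 to 0.740, with a median of 0.330, and macrophage markers from 0.419 to 1.14. The 4 germ cell markers with at least 30 counts in H3t KO entire sections ran from 0 to 0.513, with a median of 0.184. The lowest of these, Tnp1, had 0 counts in H3t KO Leydig-targeted libraries and stood at 0.570 with the floor of 3 counts. The lowest Sertoli marker was Rhox5, a homeobox gene of Sertoli cells, at 0.210 (0.0251 to 0.778). The 5 peritubular myoid markers ran from 0.0771 to 1.29, with a median of 0.650. The lowest of them was Myh11, a smooth muscle myosin, at 0.0771 (0.00929 to 0.281), from 2 counts in H3t KO Leydig-targeted libraries. Wfdc17, the neighbour of Wfdc18, had 2, 4 and 0 counts in H3t KO Leydig-targeted libraries, a ratio of 0.848 (0.302 to 1.93).

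**Figure D4:**
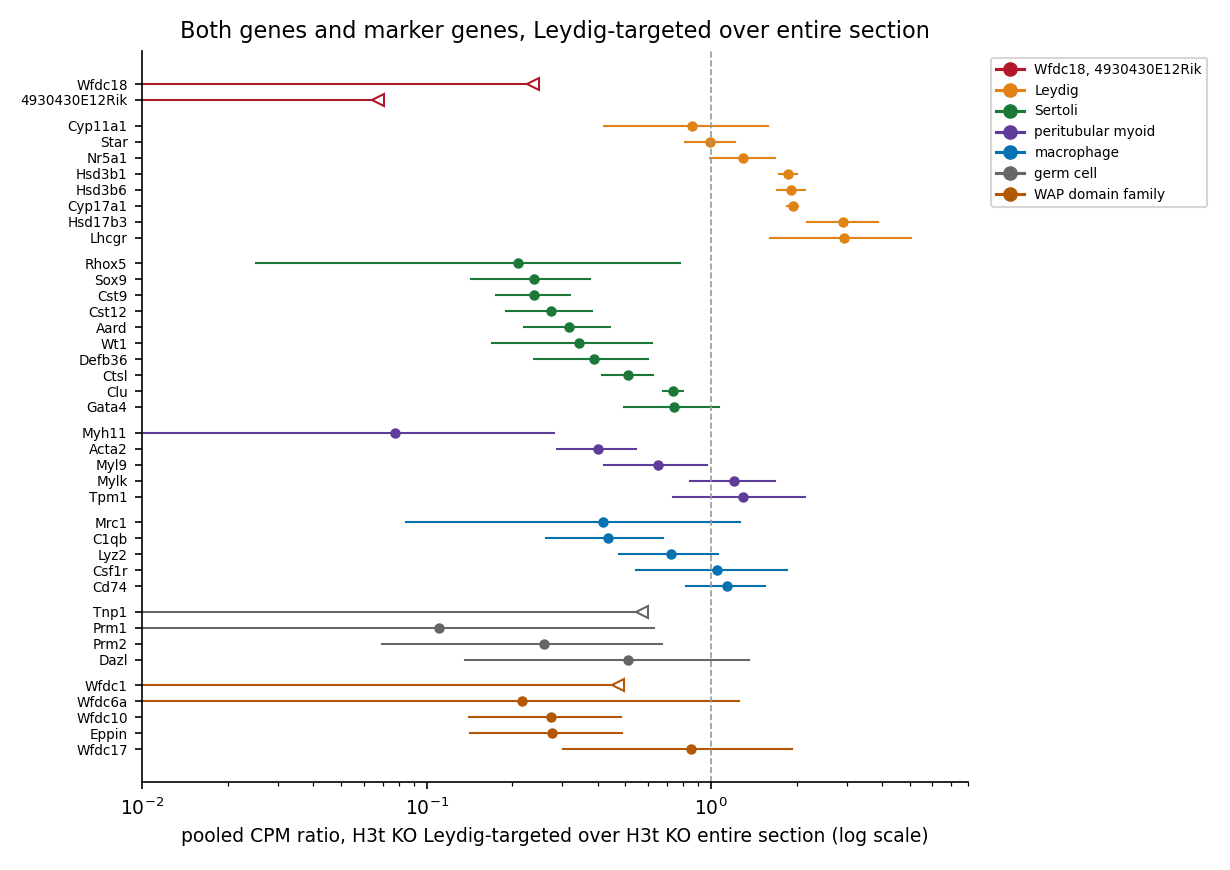
Ratio of pooled CPM in H3t KO Leydig-targeted over H3t KO entire-section libraries (log axis) for both genes, marker genes and WAP domain genes. Points are ratios, lines exact 95% counting intervals and open triangles the level of 3 counts for genes with 0 Leydig-targeted counts; the dashed line is at 1. Wfdc18 is plotted at 0.236 and 4930430E12Rik at 0.0675, and the Leydig markers at 0.860 to 2.93.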

How the data were processed

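The authors deposited raw whole-number counts per gene and library, without normalization. The submitters' processing notes name HISAT2, featureCounts, Trim Galore and UMI-tools and the GRCm38 build. They state no version and no strand setting. All 28595 gene identifiers matched the GENCODE M21 annotation, from which positions were taken, and promoter sequence came from RefSeq (GRCm38.p6). CPM is counts over the library total, with exact 95% binomial intervals. The floor for 0 counts was 3 counts over a group. Tests used edgeR 4.0.16 (R 4.3.3), with its robust quasi-likelihood fit of all 12 libraries, TMM scaling and a minimum count of 10 (about 66.1 CPM), which left 5182 genes. The SE of a log2 fold change is its size over the root of the F statistic. Calls were made at a Benjamini-Hochberg adjusted p under 0.05. In simulated counts 200 genes were changed in H3t KO entire sections and all others were equal across groups. There, against wild-type entire sections, 92.0% of genes changed 4-fold were called and 2.13% of calls were false. In the data 22.6% of genes were called higher and 39.1% lower, a far larger shift, so that false share cannot be carried over to them. The comparison of regions was not simulated. The alternatives were DESeq2 1.42.0, other scaling and filters, 6 libraries alone, a replicate block and leaving out each library. Deviations from the group mean correlated weakly between same-numbered entire sections of the genotypes (r = 0.243, 0.132 and 0.194). Between same-numbered libraries of the 2 regions of the knockout r was 0.056, 0.00807 and 0.0256. Libraries of unlike number were not compared, so these values cannot show whether the numbers pair libraries. The genes, the lists and the rules were chosen with earlier results of these data known. Named genes were both members, WAP domain genes with a count, the 3 nearest genes on each side (1 of which is not reported here), the 10 most like genes by share of CPM, and up to 3 genes of each marker list with the most counts. Other genes named for a call, a zero, a share, a ratio or a correlation were chosen after their values were seen.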

Additional observations from a re-analysis of the deposited data

How the results depend on the processing

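Of 179 values for single genes under alternatives, 159 kept direction and call, 8 lost the call, 4 gained it and 8 changed sign. The mean CPM of Wfdc18 and of 4930430E12Rik in H3t KO entire sections moved by less than 1 SD under TMM, size-factor or pooled scaling, and ranged from 107 to 133 and from 379 to 468 without 1 library. Genes higher in H3t KO over wild-type entire sections numbered 1170, but 1861 when scaled by library size, 2416 with no filter and 2390 in the 6 libraries alone. Genes lower numbered 2024, and 4639 with no filter. Without 1 library the counts ran from 914 to 1588 higher and from 1742 to 2046 lower. With the replicate block they were 1117 higher and 1989 lower, and the block changed no call of a single gene it was run on. In H3t KO Leydig-targeted over entire sections 99 genes were higher, against 160 with size factors of DESeq2, 195 by library size, 54 with no filter, 180 by DESeq2 and 229 in the 6 libraries alone. Without 1 library these ran from 44 to 136 higher and from 63 to 489 lower. WAP domain genes higher numbered 0, but 1 by library size, 3 with no filter and 4 in the 6 libraries alone, and 0 to 1 without 1 library. Those lower numbered 1, but 2 with no filter and 2 in the 6 libraries alone, and 1 without any 1 library. Eppin changed sign to 0.45 by library size, 0.23 with no filter, 0.22 in the 6 libraries alone, 0.13 without H3t KO Leydig-targeted replicate 3, 0.33 without wild-type entire section replicate 1 (lowest without 1 library -0.19, highest 0.33), 0.23 without wild-type Leydig-targeted replicate 1 and 0.23 without its replicate 3. Wfdc15a in the region comparison changed to 0.64 with DESeq2, where no call was made in either fit. The fit of 6 libraries tests more genes because its filter is set by deeper libraries, and the cause of the other changes was not tested. Depth limits the Leydig-targeted values: the floor of 3 counts over a group is 27.8 CPM in H3t KO and 34.2 CPM in wild-type Leydig-targeted libraries.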
